A study of Rattus norvegicus with 16 samples.

Results

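The proteasome genes of rat were followed here in primary hepatocytes given an inhibitor of sterol synthesis. They were chosen by name: every gene whose rat symbol starts with Psma, Psmb, Psmc, Psmd, Psme, Psmf or Psmg and a digit, with at least 1 probe well above background in 6 or more of the 32 channel readings of the arrays. The rule gave 46 genes, with 52 probes, of 20395 genes tested. Of these, 44 encode proteasome subunits, activators, an inhibitor or assembly factors. The remaining members, Psmc3ip and Psme3ip1, carry the name of a subunit that their product binds or was first found with, and are no subunits.

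The cells were primary hepatocytes of male Sprague Dawley rats, kept in Williams Medium E. They received 100 µM SQ1 or 30 µM pravastatin from 48 hours after plating, for 48 hours, or were left untreated. The labels give SQ1 by its code only, which hepatocyte work uses for squalestatin 1, a blocker of squalene synthase. Pravastatin, a statin, inhibits HMG-CoA reductase, an earlier step of the same pathway. Each of the 16 two-colour Agilent arrays held RNA of 1 treated and 1 untreated culture, with 8 arrays per drug and 4 in each dye orientation. Judged by the scanner files' names, the same 8 untreated cultures served both drugs. The doses differed, so a difference between the drugs is one between these doses.

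All values below are log2 ratios of treated over untreated cells (fold changes apart), with the standard error of the model and n = 8 arrays per drug. Calls rest on limma, with p-values adjusted by Benjamini-Hochberg over all genes tested and a threshold of 0.05. Array values are given after the dye term of each gene was removed. Every member's probe was above background in 32 of 32 channels, so none lay near the threshold of 6. The nearest probes outside it were the other probes of Psma8, in 3 and 0 channels. Across genes, which are not independent of each other, pairs of SQ1 arrays had correlations of 0.838 to 0.970, and pairs of pravastatin arrays 0.654 to 0.909. In the deposited value table the columns of the drugs are exchanged relative to the scanner files: all 16 columns match an array of the other drug. Drug names here follow the scanner files and their sample labels. Which source names the drugs rightly was not settled, and if it is the table, SQ1 and pravastatin change places in every result. RefSeq lists pseudogenes or like-named copies for 19 of the members, which a probe may not tell apart. Markers moved too: all 8 hepatocyte genes fell with SQ1 (median -0.60), and 6 fell and 2 rose with pravastatin (median -0.26). Over all genes, 31.2% were called down with SQ1, and 19.7% down and 19.4% up with pravastatin. By the scan days in the file headers, the arrays form 2 sets with both drugs in each, called culture series 1 and 2. The control numbers in the file names split the same way, but no label states separate series of cultures. The name therefore stands for a set by scan day, not for a known preparation of cells.

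The proteasome degrades proteins marked with ubiquitin. Its 20S core is a barrel of alpha rings, which form the gate, and beta rings, which hold the catalytic sites, and the 19S cap recognises, unfolds and feeds in the substrate. Under interferon, catalytic beta subunits are replaced by those of the immunoproteasome, whose peptides are loaded on class I molecules. When the proteasome falls short, the transcription factor NRF1 (gene Nfe2l1) is known to raise its subunit genes together.

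Proteasome transcripts moved upward with SQ1 more often than downward, and every change was small. Of the 46 genes, 25 rose, 5 fell and 16 were not called, where 63.9% of all genes tested were called in either direction. That made 54.3% called up, against 32.7% of all genes tested, and 10.9% called down, against 31.2% of all genes. The median was 0.09 over the members and 0.01 over all genes. The largest fold was 1.45, for Psmd9, and the lowest 0.857, for Psma6, so no member reached the 1.5-fold that 3.05% of all genes passed upward and 4.43% downward. On single arrays, 20 members were above 0 on all 8 SQ1 arrays and 3 were below 0 on all 8. The same was not counted over all genes, so these numbers have no background to be read against. When arrays were centred on their median in place of loess, 35 members were called up and 0 down (limma, and 0 at an unadjusted p under 0.05 as well), with a member median of 0.19. The same setting called 6661 of all genes up and 5187 down, against 6670 and 6368 with loess. When arrays were scaled to 1 spread, 10 members were called up and 3 down, and 4464 and 4450 of all genes. With that scaling the share of members called up was near that of all genes, and the share called down was lower. Within culture series 1 the counts were 16 up and 3 down, and within series 2 they were 26 up and 7 down. These counts are of members only, without the share over all genes beside them.

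Pravastatin gave the same lean with fewer calls. Of the 46 genes, 16 rose, 3 fell and 27 were not called: 34.8% up against 19.4% of all genes, and 6.52% down against 19.7%, with 39.1% of all genes called in either direction. The member median was 0.04, against 0.0019 over all genes. The largest fold was 1.22, for Psmb9, and the lowest 0.907, for Psmd10, where 0.981% of all genes were called with 1.5-fold or more upward and 0.981% downward. There were 13 members above 0 on all 8 arrays and 3 below 0 on all 8, again without a count over all genes. Median centring gave 18 up and 1 down and a member median of 0.09, with 3409 up and 3173 down over all genes, against 3953 and 4012 with loess. Within culture series 1 the counts were 12 up and 2 down, and within series 2 they were 13 up and 4 down, of members only. The comparisons share their untreated cultures, so what they have in common is not independent.

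**Figure D1:**
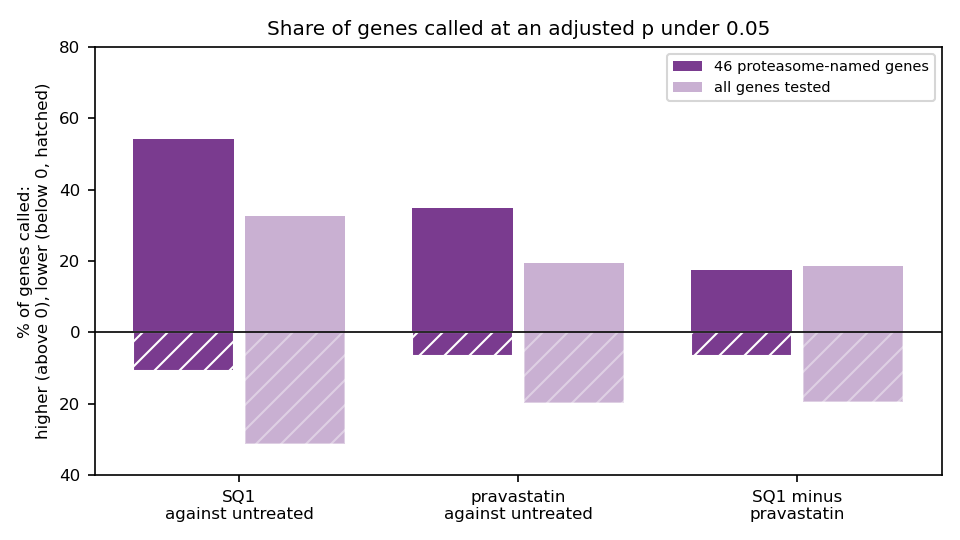
Share of genes called up (above 0) and down (below 0, hatched) at an adjusted p under 0.05 in each comparison, for the 46 proteasome-named genes (dark) and all 20395 genes tested (light). With SQ1, 54.3% of the members and 32.7% of all genes were called up, and in the difference of the drugs 17.4% and 18.5%.

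**Figure D2:**
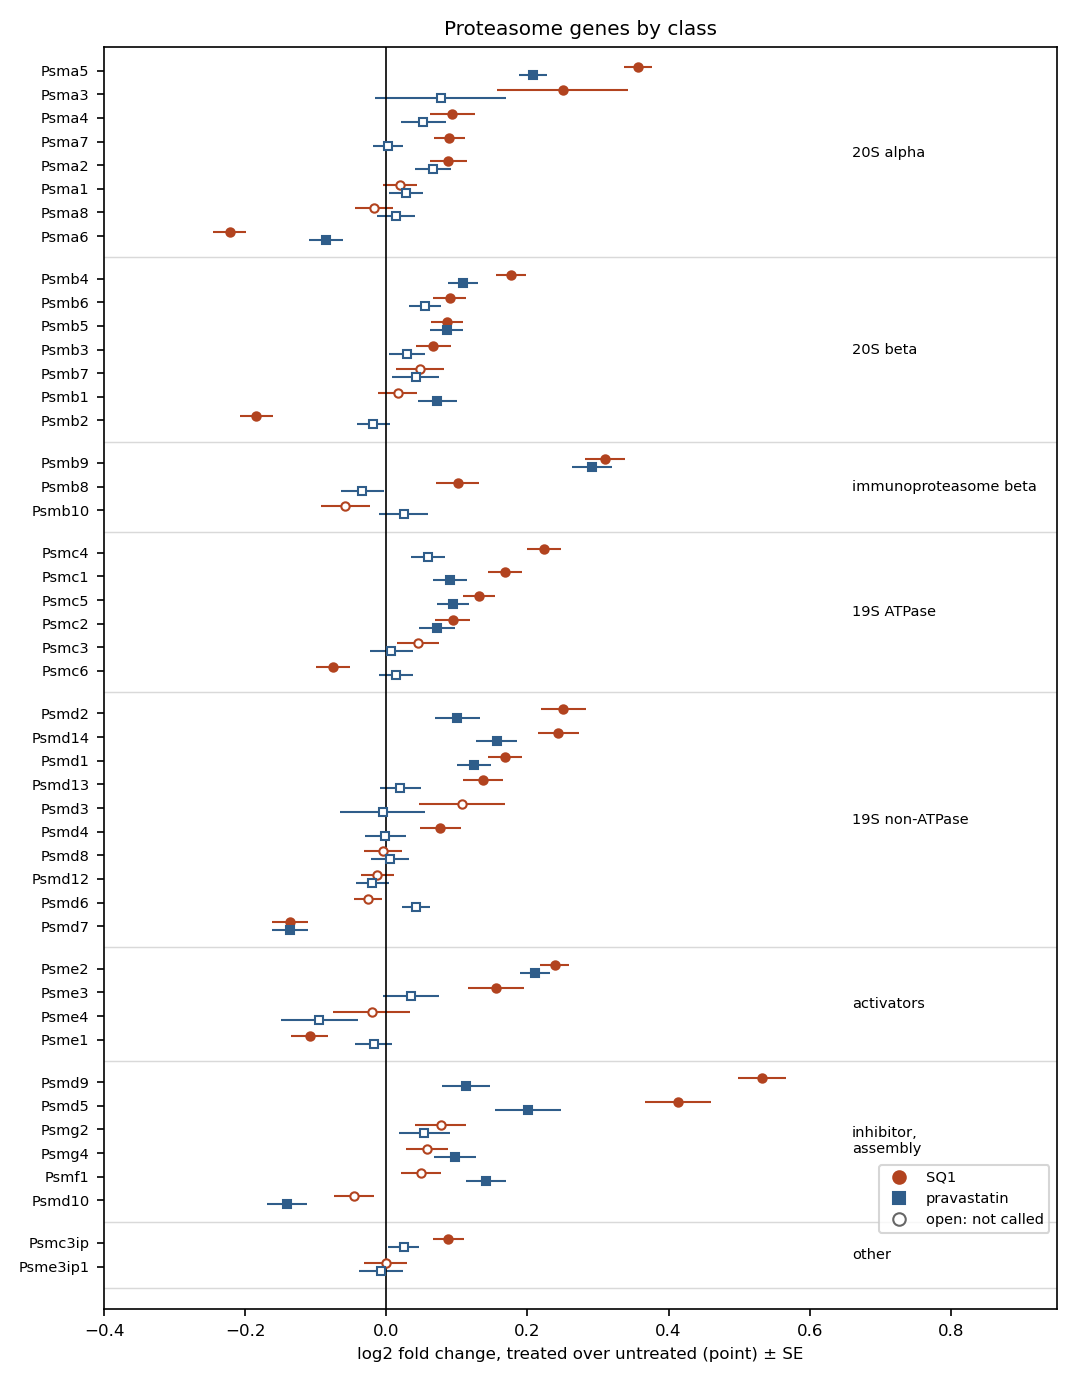
Log2 ratio of treated over untreated cells for each proteasome-named gene, by class, with SE bars (n = 8 arrays per drug). Circles are SQ1 and squares pravastatin, and open symbols were not called. Psmd9 and Psmd5 lie farthest right with SQ1, and Psma6 and Psmb2 farthest left.

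The members farthest from 0 with SQ1 were not subunits of the finished particle but assembly chaperones. Psmd9, a chaperone of the ATPase ring of the cap, had values of 0.45, 0.50 and 0.64 (lowest, median and highest of 8 arrays) with SQ1, and -0.03, 0.11 and 0.30 with pravastatin. The lowest SQ1 array exceeded the highest pravastatin array. Psmd9 rose by 0.53 ± 0.03 with SQ1, or 1.45-fold (adjusted p = 1.5e-10, limma), and by 0.11 ± 0.03 with pravastatin (adjusted p = 0.012). A second probe of Psmd9 gave 0.33 with SQ1 and 0.0037 with pravastatin, and with the mean of both probes the pravastatin call was lost. Psmd5, which binds the same ATPase ring and is also known to hold back assembly of the particle, had values of 0.13, 0.43 and 0.69 with SQ1 and 0.11, 0.21 and 0.29 with pravastatin. All 16 ratios of Psmd5 were above 0, and the SQ1 arrays were the more spread. It rose by 0.41 ± 0.05 with SQ1 (adjusted p = 3.6e-07) and by 0.20 ± 0.05 with pravastatin (adjusted p = 0.0022). Psmd10 (gankyrin), another chaperone of this kind, lay below 0. Its values were -0.17, -0.05 and 0.11 with SQ1, where it was not called at -0.05 ± 0.03 (adjusted p = 0.18). With pravastatin they were -0.22, -0.13 and -0.07, all below 0, and it fell by 0.14 (adjusted p = 0.00071). Within culture series, Psmd10 with SQ1 was at 0.02 in series 1 (adjusted p = 0.56) and was called at -0.12 in series 2 (adjusted p = 0.0052).

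The other factors of this class stayed nearer to 0 with SQ1. Psmf1, an inhibitor of the 20S core, had values of -0.02, 0.02 and 0.24 with SQ1 and 0.08, 0.12 and 0.25 with pravastatin. It rose by 0.14 ± 0.03 with pravastatin (adjusted p = 0.0006) while its SQ1 value of 0.05 ± 0.03 was not called (adjusted p = 0.14), and its second probe gave 0.06 with SQ1 and 0.05 with pravastatin. Psmg2 and Psmg4, chaperones of the alpha ring, stood at 0.08 and 0.06 with SQ1 and at 0.05 and 0.10 with pravastatin, where Psmg4 was called. Psmg2 was called within culture series 2, at 0.13 with SQ1 (adjusted p = 0.018) and 0.12 with pravastatin (adjusted p = 0.037). In all, 2 of the 6 measured inhibitor and assembly genes rose with SQ1, or 33.3%, near the 32.7% of all genes. With pravastatin 4 rose and 1 fell, or 66.7% and 16.7%, against 19.4% and 19.7% of all genes. Psmg1 and Psmg3 were not analysed here.

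The promoters of Psmd9 and of the core subunit Psmb5 are shown because each holds the core of the antioxidant response element, the site that NRF1 and its relative NRF2 bind. The sequences are from RefSeq on build GRCr8, bases -150 to 50 around the gene start, 5′ to 3′ along the gene, with matches to TGACNNNGC on either strand in capitals. The Psmd9 window lies at chr12:39018215-39018414, minus strand, and the Psmb5 window at chr15:32047330-32047529, minus strand.
Psmd9: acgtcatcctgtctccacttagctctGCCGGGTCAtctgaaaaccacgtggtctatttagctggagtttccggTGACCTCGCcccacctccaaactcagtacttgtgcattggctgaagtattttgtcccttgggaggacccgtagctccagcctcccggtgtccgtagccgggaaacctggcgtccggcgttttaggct
Psmb5: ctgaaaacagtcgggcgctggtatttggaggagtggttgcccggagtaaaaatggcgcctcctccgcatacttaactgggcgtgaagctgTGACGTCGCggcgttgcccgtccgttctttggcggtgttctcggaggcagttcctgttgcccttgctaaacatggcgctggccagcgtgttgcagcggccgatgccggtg
Psmd9 held 2 matches, the first bases of which were at -124 and -77, and Psmb5 held 1 at -60. Among the 42 members with a RefSeq promoter (300 bases, 250 before and 50 after the start), 8 held the motif, or 19.0%, against 12.7% of 19005 promoters of protein-coding genes. The 8 were Psma3, Psmb2, Psmb5, Psmb6, Psmd1, Psmd3, Psmd9 and Psme4. Of these, Psma3, Psmb5, Psmb6, Psmd1 and Psmd9 rose with SQ1, Psmb2 fell and the other genes were not called. Over all 46 members 54.3% rose with SQ1, not far from the share among these 8. Both promoters printed above are of genes that rose, and that of Psmb2 is not shown. The box GGGCGG of Sp1 stood in 30 members, or 71.4%, against 43.1% of all promoters. The CCAAT box stood in 22, or 52.4%, against 38.4%. These are matches of letters on both strands and do not show binding. Psma7, Psmd6, Psmd12 and Psmd14 had no entry.

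**Figure D3:**
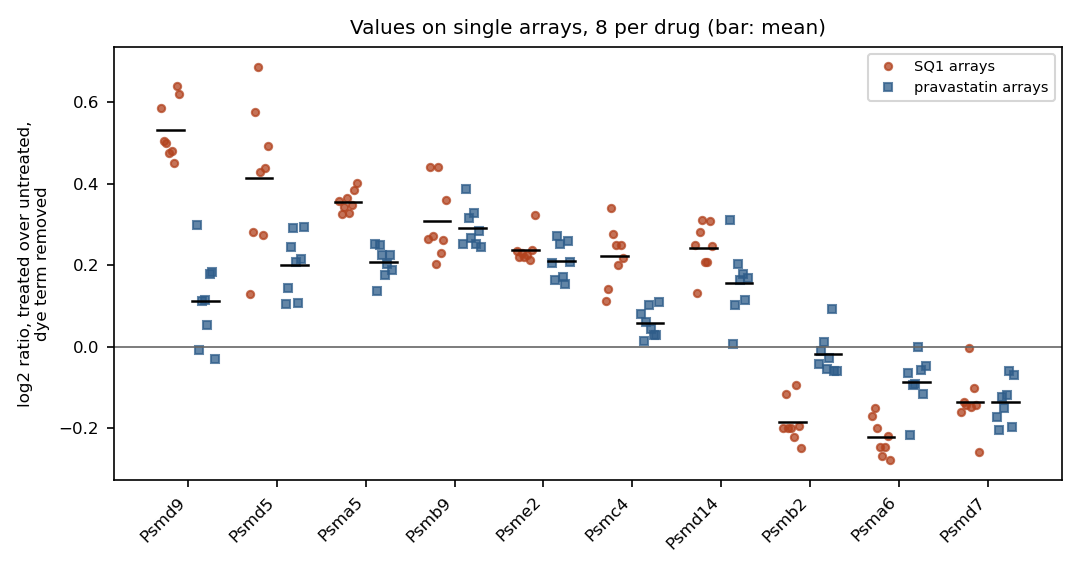
Log2 ratios on single arrays for 10 proteasome genes, SQ1 (circles) left of pravastatin (squares), with the mean of 8 arrays as a bar. The SQ1 arrays of Psmd9, Psma5 and Psmc4 lie above every pravastatin array, and those of Psmb2 lie below.

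In the 20S core, 9 of 15 genes rose and 2 fell with SQ1, with a median of 0.09. That was 60% up and 13.3% down, against 32.7% and 31.2% of all genes. With pravastatin 4 rose and 1 fell, with a median of 0.05, or 26.7% and 6.67% against 19.4% and 19.7% of all genes. Psma5 led the alpha subunits. Its values were 0.33, 0.35 and 0.40 with SQ1 and 0.14, 0.21 and 0.25 with pravastatin, and the lowest SQ1 array exceeded the highest pravastatin array. It rose by 0.36 ± 0.02 with SQ1 (adjusted p = 2.2e-11) and by 0.21 ± 0.02 with pravastatin (adjusted p = 1.8e-07). Psma6, another subunit of the same ring, ran against it, at -0.28, -0.23 and -0.15 with SQ1 and -0.22, -0.08 and -0.0015 with pravastatin, with all 16 ratios below 0. It fell by 0.22 with SQ1 (adjusted p = 2.2e-07) and by 0.09 with pravastatin (adjusted p = 0.0084). Under median centring Psma6 was at -0.05 with SQ1 and -0.0018 with pravastatin and lost both calls (adjusted p = 0.35 and 0.98). RefSeq lists 5 pseudogenes of Psma6, but members that rose have copies too, such as 10 for Psmb3 and 3 for Psmc4.

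Psma3 was the least steady member, with an SE of 0.09 against a median of 0.03 over the members. With SQ1 it ran at 0.02, 0.24 and 0.66 and was called at 0.25 ± 0.09 (adjusted p = 0.025), a call that was lost without SQ1 replicate 4 (adjusted p = 0.051), without SQ1 replicate 5 (0.19, adjusted p = 0.093), with slide as a random block or after scaling. With pravastatin it ran at -0.43, -0.02 and 0.58 and was not called at 0.08 ± 0.09. By culture series the pravastatin value was 0.35 in series 1 (adjusted p = 0.036) and -0.19 in series 2 (adjusted p = 0.027). The series were set by scan day and hold different slides, so scan day, slide and culture cannot be told apart. Of the other alpha genes, Psma2, Psma4 and Psma7 rose with SQ1 by 0.09 each. Psma1 and the testis form Psma8 were at 0.02 and -0.02 with SQ1 and not called.

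The constitutive catalytic subunits lay near 0 over all arrays of a drug. Psmb5, which carries the chymotrypsin-like site, had values of 0.01, 0.09 and 0.13 with SQ1 and -0.05, 0.10 and 0.14 with pravastatin. It rose by 0.09 ± 0.02 with SQ1 (adjusted p = 0.0033) and by 0.09 ± 0.02 with pravastatin (adjusted p = 0.0064), and both calls were lost within culture series 1 and the SQ1 call after scaling to 1 spread. Psmb6, with the caspase-like site, ran at -0.01, 0.10 and 0.17 with SQ1 and -0.04, 0.06 and 0.11 with pravastatin. It rose by 0.09 ± 0.02 with SQ1 (adjusted p = 0.0023) and was not called with pravastatin at 0.05 ± 0.02 (adjusted p = 0.068). The SQ1 call of Psmb6 was lost within culture series 1, at 0.05 (adjusted p = 0.28), and kept within series 2, at 0.13 (adjusted p = 0.0019). Psmb7, with the trypsin-like site, ran at -0.17, 0.04 and 0.20 with SQ1 and -0.07, 0.05 and 0.12 with pravastatin, and neither 0.05 ± 0.03 with SQ1 nor 0.04 ± 0.03 with pravastatin was called. Within culture series, Psmb7 with SQ1 was at -0.04 in series 1 (adjusted p = 0.42) and was called at 0.14 in series 2 (adjusted p = 0.0019).

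Among the beta subunits without a catalytic site, Psmb4 and Psmb2 parted. Psmb4 was at 0.12, 0.17 and 0.25 with SQ1 and 0.03, 0.11 and 0.15 with pravastatin, above 0 on every array, and rose by 0.18 ± 0.02 with SQ1 (adjusted p = 1e-06) and by 0.11 ± 0.02 with pravastatin (adjusted p = 0.0006). Psmb2 was at -0.25, -0.20 and -0.09 with SQ1, below every pravastatin array, which were at -0.06, -0.03 and 0.09. It fell by 0.18 with SQ1 (adjusted p = 1.5e-06) and was not called with pravastatin at -0.02 ± 0.02. After median centring Psmb2 stood at -0.01 with SQ1 (adjusted p = 0.8). Psmb3 rose by 0.07 with SQ1 and Psmb1 by 0.07 with pravastatin. That Psmb1 call, at adjusted p = 0.047, was lost in 11 of the 16 fits that left out 1 array (pravastatin replicates 1, 3, 4, 5, 6 and 8, and SQ1 replicates 1, 2, 3, 4 and 8).

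In the 19S cap, 9 of the 16 measured genes rose and 2 fell with SQ1 (median 0.10), and 6 rose and 1 fell with pravastatin (median 0.03). With SQ1 that was 56.2% up and 12.5% down, against 32.7% and 31.2% of all genes. With pravastatin it was 37.5% and 6.25%, against 19.4% and 19.7% of all genes. The ATPases, which unfold the substrate, gave 4 up and 1 down of 6 with SQ1, or 66.7% and 16.7%. Psmc4 was at 0.11, 0.23 and 0.34 with SQ1 and 0.01, 0.05 and 0.11 with pravastatin, without overlap, and rose by 0.22 ± 0.02 with SQ1 (adjusted p = 2.7e-07). With pravastatin it was not called, at 0.06 ± 0.02 (adjusted p = 0.067), although all 8 arrays were above 0. Psmc1 was at 0.05, 0.19 and 0.26 with SQ1 and 0.03, 0.09 and 0.16 with pravastatin and rose by 0.17 ± 0.02 with SQ1 (adjusted p = 6.4e-06) and 0.09 ± 0.02 with pravastatin (adjusted p = 0.0059). Psmc5 was at 0.06, 0.13 and 0.19 with SQ1 and 0.03, 0.08 and 0.21 with pravastatin and rose by 0.13 ± 0.02 with SQ1 (adjusted p = 5.7e-05) and 0.09 ± 0.02 with pravastatin (adjusted p = 0.0027). Psmc2 rose by 0.09 with SQ1 and 0.07 with pravastatin, Psmc3 was not called, and Psmc6 fell by 0.08 with SQ1 (adjusted p = 0.0096). The fall of Psmc6 was lost under median centring, and the pravastatin call of Psmc2 was lost without pravastatin replicate 1, 3, 5, 6 or 7.

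Of the 10 measured subunits of the cap that are not ATPases, 5 rose and 1 fell with SQ1, and 3 rose and 1 fell with pravastatin. With SQ1 that was 50% up and 10% down, against 32.7% and 31.2% of all genes. With pravastatin it was 30% and 10%, against 19.4% and 19.7% of all genes. Psmd2, a scaffold that receives ubiquitin carriers, was at 0.12, 0.26 and 0.44 with SQ1 and -0.01, 0.10 and 0.20 with pravastatin. It rose by 0.25 ± 0.03 with SQ1 (adjusted p = 1.8e-06) and by 0.10 ± 0.03 with pravastatin (adjusted p = 0.018), and the pravastatin call was lost without pravastatin replicate 1 (0.09, adjusted p = 0.056). Psmd14, the enzyme that removes ubiquitin chains at the cap, was at 0.13, 0.25 and 0.31 with SQ1 and 0.01, 0.17 and 0.31 with pravastatin, above 0 on all 16 arrays. It rose by 0.24 ± 0.03 with SQ1 (adjusted p = 7.1e-07) and by 0.16 ± 0.03 with pravastatin (adjusted p = 0.00032). Psmd7, which pairs with Psmd14 in the particle, did the opposite: it was at -0.26, -0.14 and -0.0036 with SQ1 and -0.20, -0.14 and -0.06 with pravastatin. It fell by 0.14 with SQ1 (adjusted p = 0.00014) and by 0.14 with pravastatin (adjusted p = 0.00037), all 16 ratios being below 0. After median centring Psmd7 was at -0.03 with SQ1 and -0.09 with pravastatin and both calls were lost. Psmd1, the scaffold beside Psmd2, rose by 0.17 with SQ1 and 0.12 with pravastatin. Psmd4, a ubiquitin receptor, and Psmd13 rose with SQ1, by 0.08 and 0.14. Within culture series 1 neither was called, with Psmd4 at 0.0081 (adjusted p = 0.88) and Psmd13 at 0.09 (adjusted p = 0.096). Within series 2 Psmd4 was called at 0.15 (adjusted p = 0.0019) and Psmd13 at 0.19 (adjusted p = 0.00041). Psmd3, Psmd6, Psmd8 and Psmd12 were not called with either drug over all arrays, and Psmd11 was not analysed here. Within culture series, Psmd3 with SQ1 was at -0.03 in series 1 (adjusted p = 0.79) and was called at 0.24 in series 2 (adjusted p = 0.0024). Its difference of SQ1 minus pravastatin was -0.02 in series 1 (adjusted p = 0.95) and 0.24 in series 2 (adjusted p = 0.031). Of the SQ1 calls in the cap and core, those of Psma2, Psma3, Psma4, Psma7, Psmb3, Psmb5, Psmc2, Psmc5, Psmc6, Psmd1, Psmd2, Psmd4, Psmd7 and Psmd14 were lost when arrays were scaled to 1 spread, as were the pravastatin calls of Psmc2, Psmc5, Psmd2, Psmd9 and Psmg4. Slide as a random block lost those of Psma3, Psma4, Psmb3, Psmc6 and Psmd4, and the pravastatin calls of Psma6, Psmb1, Psmc2, Psmd2, Psmd9 and Psmg4. The SQ1 call was also lost for Psmb3 without SQ1 replicate 1, 3, 4 or 7, for Psmd4 without 3, 4, 7 or 8, and for Psma4 without 5. Within culture series 1 the SQ1 calls lost were Psma4, Psmb3, Psmb5, Psmb6, Psmb8, Psmc3ip, Psmc6, Psmd4, Psmd13, Psme1 and Psme3. Within series 2 they were Psma2 and Psmc2. The pravastatin calls lost were Psma6, Psmb1, Psmb5, Psmc1, Psmc2, Psmc5 and Psmd9 within series 1. Within series 2 they were Psmb1, Psmc2, Psmd2, Psmd9 and Psmg4.

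**Figure D4:**
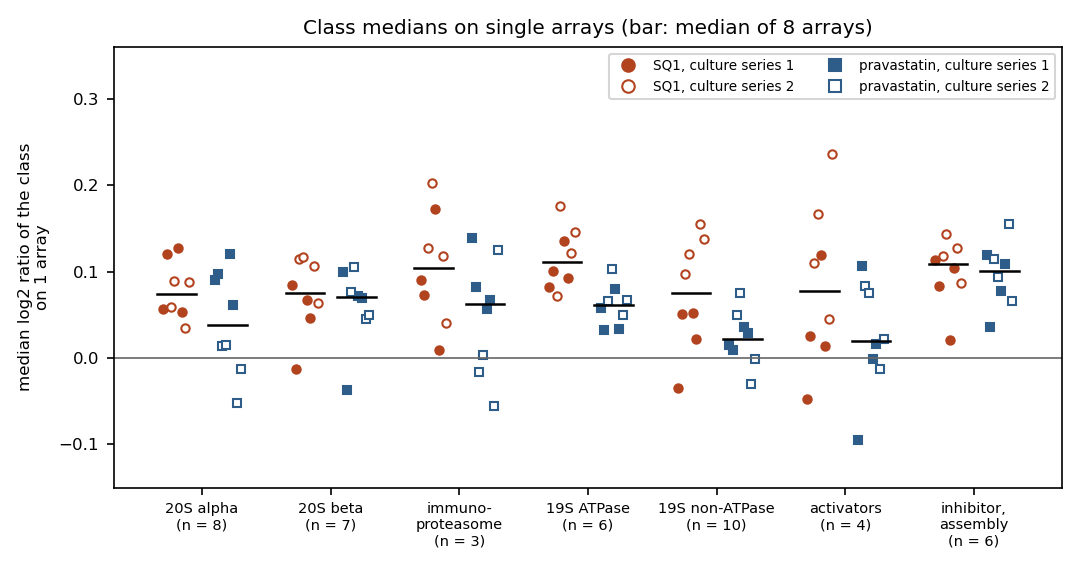
Median log2 ratio of each class of proteasome genes on each array, SQ1 (circles) left of pravastatin (squares), filled for culture series 1 and open for series 2, with the median of 8 arrays as a bar. The culture series are sets by scan day, and no label states separate cultures. The ATPase class is above 0 on all 16 arrays.

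The 3 immunoproteasome beta genes differed from each other: 2 rose with SQ1 (median 0.10) and 1 with pravastatin (median 0.02). That was 66.7% and 33.3% called up, against 32.7% and 19.4% of all genes. Psmb9, which takes the place of Psmb6, was at 0.20, 0.27 and 0.44 with SQ1 and 0.25, 0.28 and 0.39 with pravastatin, and none of the 16 ratios was below 0.20. It rose by 0.31 ± 0.03 with SQ1, or 1.24-fold (adjusted p = 2.8e-08), and by 0.29 ± 0.03 with pravastatin, or 1.22-fold (adjusted p = 3.1e-07). Psmb8, which takes the place of Psmb5, was at 0.01, 0.10 and 0.24 with SQ1 and -0.14, -0.04 and 0.13 with pravastatin. It rose by 0.10 ± 0.03 with SQ1 (adjusted p = 0.0076), a call lost after scaling and within culture series 1, and was not called with pravastatin at -0.03 ± 0.03 (adjusted p = 0.42). Psmb10, which takes the place of Psmb7, was at -0.23, -0.06 and 0.07 with SQ1 and -0.06, 0.02 and 0.14 with pravastatin, and neither -0.06 ± 0.03 with SQ1 nor 0.02 ± 0.03 with pravastatin was called. Within culture series, Psmb10 with SQ1 was at 0.0076 in series 1 (adjusted p = 0.87) and was called down at -0.12 in series 2 (adjusted p = 0.015).

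The activators that interferon induces alongside these subunits also parted. Psme2 was at 0.21, 0.23 and 0.32 with SQ1 and 0.15, 0.21 and 0.27 with pravastatin, above 0 on all 16 arrays. It rose by 0.24 ± 0.02 with SQ1 (adjusted p = 1.4e-08) and by 0.21 ± 0.02 with pravastatin (adjusted p = 3.5e-07), and the SQ1 call was lost after scaling to 1 spread (adjusted p = 0.089). Psme1, its partner in the same ring and a near neighbour on the chromosome, was at -0.19, -0.12 and 0.02 with SQ1 and -0.08, -0.04 and 0.09 with pravastatin. It fell by 0.11 with SQ1 (adjusted p = 0.0016) and was not called with pravastatin at -0.02 ± 0.03, and median centring turned the SQ1 value to 0.052 without a call. Psme3, the nuclear member of the family, was at 0.00087, 0.14 and 0.35 with SQ1 and -0.14, 0.05 and 0.16 with pravastatin. It rose by 0.16 ± 0.04 with SQ1 (adjusted p = 0.0023), with 0.04 in culture series 1 (adjusted p = 0.36) and 0.27 in series 2 (adjusted p = 6e-05), and stood at 0.03 ± 0.04 with pravastatin. The SQ1 call of Psme3 was lost after scaling to 1 spread. The pravastatin value was -0.03 in series 1 (adjusted p = 0.71) and was called at 0.10 in series 2 (adjusted p = 0.048). Psme4, another nuclear activator, was at -0.32, -0.03 and 0.17 with SQ1 and -0.30, -0.14 and 0.23 with pravastatin and not called, at -0.02 ± 0.05 with SQ1 and -0.09 ± 0.05 with pravastatin. Its probes disagreed, since the second gave -0.26 with SQ1 and 0.08 with pravastatin, and with the mean of both the SQ1 value of -0.14 was called.

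The promoters of Psmb9, Psme2 and Psmb10 are shown because the genes are known to answer interferon, and Psmb9 and Psme2 rose where Psmb10 was not called over all arrays. They are from RefSeq on build GRCr8, bases -150 to 50 around the start. In Psme2 and Psmb10 the capitals mark the core of the interferon-stimulated response element, a pair of GAAA runs with 2 bases between them, and in Psmb9 they mark GGGCGG and the CCAAT box, on either strand. Psmb9 lies at chr20:4668850-4669049, plus strand, Psme2 at chr15:33052702-33052901, minus strand, and Psmb10 at chr19:50743243-50743442, minus strand.
Psmb9: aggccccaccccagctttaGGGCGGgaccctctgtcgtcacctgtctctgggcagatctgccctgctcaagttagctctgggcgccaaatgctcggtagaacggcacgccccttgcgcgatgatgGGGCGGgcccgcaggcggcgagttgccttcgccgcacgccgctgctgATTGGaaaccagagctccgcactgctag
Psme2: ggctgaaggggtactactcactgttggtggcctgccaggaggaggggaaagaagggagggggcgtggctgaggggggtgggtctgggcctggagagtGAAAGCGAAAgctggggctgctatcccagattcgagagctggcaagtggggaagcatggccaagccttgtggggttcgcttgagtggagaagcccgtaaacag
Psmb10: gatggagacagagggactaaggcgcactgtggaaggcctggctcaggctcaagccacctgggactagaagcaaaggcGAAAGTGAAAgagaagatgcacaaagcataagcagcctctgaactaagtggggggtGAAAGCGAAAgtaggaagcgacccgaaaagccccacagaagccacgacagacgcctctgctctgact
Psmb10, not called over all arrays and called down with SQ1 within series 2, held 2 matches to the interferon element, at -73 and -17. Psme2, which rose, held 1 at -53. Psmb9, which rose with both drugs, held no match in its window. Of the 42 members with a promoter, 7 held the interferon element, or 16.7%, against 3.63% of all promoters: Psma4, Psmb3, Psmb8, Psmb10, Psmd7, Psme2 and Psmg4. With SQ1, Psma4, Psmb3, Psmb8 and Psme2 rose, Psmd7 fell, and Psmb10 and Psmg4 were not called over all arrays. Over all 46 members 54.3% rose with SQ1, near the share among these 7. Psmb8, whose promoter is not shown, held its match at -4. A match of letters does not show binding. The gamma-activated site TTCNNNGAA stood in 4, or 9.52%, against 8.26%.

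Genes around the immunoproteasome were read beside it. Of 27 measured genes of antigen processing and the interferon response, 11 rose and 5 fell with SQ1 (median 0.07), or 40.7% up and 18.5% down against 32.7% and 31.2% of all genes. With pravastatin 7 rose and 4 fell (median -0.02), or 25.9% up and 14.8% down against 19.4% and 19.7% of all genes. Tap1, a peptide transporter that shares its promoter region with Psmb9 on the opposite strand, was at 0.34, 0.50 and 0.73 with SQ1 and 0.02, 0.18 and 0.29 with pravastatin. It rose by 0.51 ± 0.04 with SQ1 (adjusted p = 2.6e-09) and by 0.16 ± 0.04 with pravastatin (adjusted p = 0.0034). Tapbp, which bridges the transporter and class I molecules, rose by 0.55 ± 0.04 with SQ1 and 0.37 ± 0.04 with pravastatin. Stat2, a signal carrier of type I interferon, was at 0.60, 0.73 and 0.90 with SQ1 and 0.62, 0.67 and 0.81 with pravastatin and rose by 0.75 ± 0.03 with SQ1 (adjusted p = 3.2e-13) and by 0.68 ± 0.03 with pravastatin (adjusted p = 5.1e-12). Among interferon-induced genes, Ifit3 rose by 0.96 ± 0.17 with SQ1 (adjusted p = 8.1e-05), Mx2 fell by 0.73 (adjusted p = 6.7e-09), and Irf1 was not called, at -0.00056. Tap1, Tapbp and Irf1 were named after their values were seen.

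Markers of other cells changed in the same cultures, and a culture with fewer cells of a type cannot be told apart from one with less RNA per cell. All 15 macrophage markers fell with both drugs, with a median of -0.53 with SQ1 and -0.73 with pravastatin. Their summed signal ran from 42682 to 65265 in SQ1 cultures, against 57372 to 108051 in the untreated cultures of those arrays. It ran from 41209 to 49336 in pravastatin cultures, against 63584 to 95851 in untreated cultures. All 15 were above background in every channel. Cd74, the chain that guides class II molecules, and RT1-Da, a class II molecule, fell with pravastatin, by 0.64 (adjusted p = 3.6e-09) and 0.55 (adjusted p = 7.2e-07). Of 7 stellate cell and fibroblast markers, all fell with SQ1 and 3 with pravastatin, or 100% and 42.9%. Of 4 measured endothelial markers 3 fell with SQ1 and 1 with pravastatin, or 75% and 25%. Over all genes, 31.2% were called down with SQ1 and 19.7% with pravastatin. Of 4 measured cholangiocyte markers, 1 rose and 2 fell with SQ1, or 25% and 50%, and 1 rose and 1 fell with pravastatin, or 25% each. Called up over all genes were 32.7% with SQ1 and 19.4% with pravastatin. Of 4 measured lymphocyte markers, 2 fell with SQ1 and 1 with pravastatin, or 50% and 25%. Other lymphocyte markers, Cd3e and Cd2 among them, had no probe past the filter. Their part in the immunoproteasome values was not tested.

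Some of the factors that load, steer or induce the proteasome were farther from 0 than any subunit. Of 26 measured, 14 rose and 5 fell with SQ1 (median 0.09), or 53.8% and 19.2% against 32.7% and 31.2% of all genes. With pravastatin 9 rose and 2 fell (median 0.04), or 34.6% and 7.69% against 19.4% and 19.7% of all genes. Nfe2l1, the factor named above, was at 0.91, 1.17 and 1.33 with SQ1 and 0.16, 0.35 and 0.73 with pravastatin, above 0 on all 16 arrays. It rose by 1.14 ± 0.06 with SQ1 (adjusted p = 3.1e-11) and 0.44 ± 0.06 with pravastatin (adjusted p = 3.3e-05). Nfe2l2, its relative, was at -0.86, -0.65 and -0.59 with SQ1 and -0.25, -0.20 and -0.09 with pravastatin, below 0 on all 16 arrays, and fell by 0.69 with SQ1 (adjusted p = 8.6e-13) and 0.18 with pravastatin (adjusted p = 0.00012). Zfand2a, a stress-induced protein that binds the proteasome, was at 0.55, 0.87 and 1.06 with SQ1 and rose by 0.84 ± 0.05 (adjusted p = 1.3e-10). With pravastatin it was at -0.06, 0.13 and 0.21 and not called (0.10 ± 0.05).

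Other partners, of which all but Uba6 were picked after their values were seen, stood nearer to the subunits. Ubqln1, which carries ubiquitinated proteins to the cap, rose by 0.37 ± 0.03 with SQ1, and Adrm1, a ubiquitin receptor of the cap, by 0.29 ± 0.03. Usp14, a deubiquitinase bound to Psmd2, rose by 0.26 ± 0.03 with SQ1 and 0.10 ± 0.03 with pravastatin. Ngly1, an enzyme that processes the Nfe2l1 protein, fell by 0.28 with SQ1 (adjusted p = 1.1e-08). Pomp, the chaperone of 20S maturation, rose by 0.08 ± 0.02 with SQ1 and 0.08 ± 0.02 with pravastatin. Uba6, a ubiquitin-activating enzyme, rose by 0.14 ± 0.03 with SQ1 and 0.19 ± 0.03 with pravastatin.

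**Figure D5:**
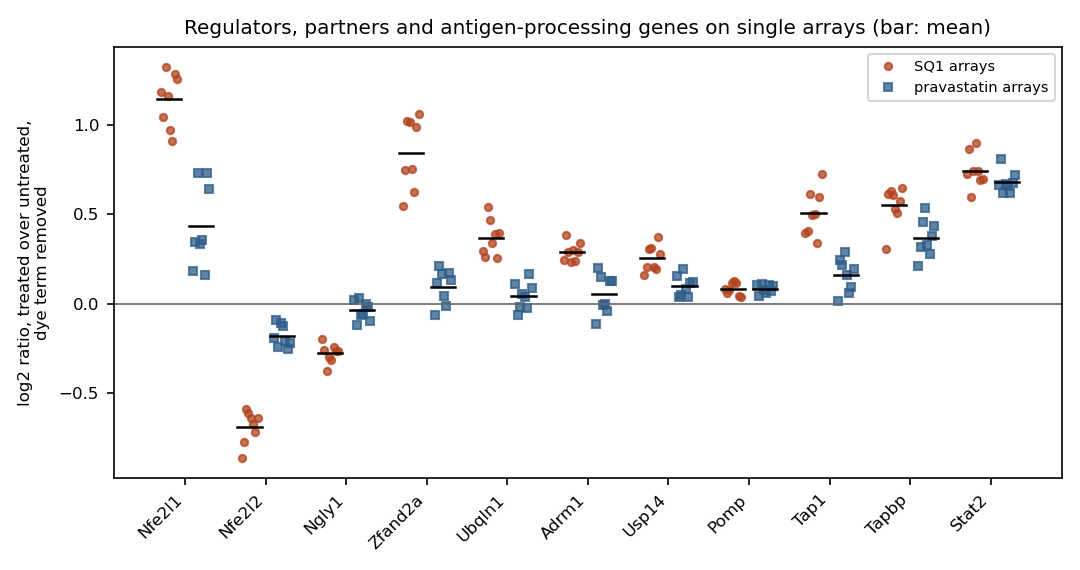
Log2 ratios on single arrays for regulators, partners and antigen-processing genes, SQ1 (circles) left of pravastatin (squares), with the mean of 8 arrays as a bar. Nfe2l1 lies above 0 and Nfe2l2 below 0 on all 16 arrays.

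The difference of the drugs was tested in the same fit, as SQ1 minus pravastatin. Of the 46 genes, 8 were called higher with SQ1, or 17.4% against 18.5% of all genes, and 3 lower, or 6.52% against 19.5%. The share called higher was near that of all genes, of which 38% were called in either direction. None reached 1.5-fold, which 1.94% of all genes passed upward and 2.27% downward. The 8 were Psmd9 (0.42 ± 0.05, adjusted p = 1.3e-06), Psmd5 (0.21 ± 0.07, adjusted p = 0.016), Psmc4 (0.16 ± 0.03, adjusted p = 0.001), Psmd2 (0.15 ± 0.05, adjusted p = 0.014), Psma5 (0.15 ± 0.03, adjusted p = 0.00031), Psmb8, Psmd13 and Psma7. The 3 were Psmb2 (-0.17 ± 0.03, adjusted p = 0.00057), Psma6 (-0.14 ± 0.03, adjusted p = 0.0037) and Psmc6. The SQ1 arrays lay above all pravastatin arrays for 3 members, or 6.52% against 7.18% of all genes, and below them for 1, or 2.17% against 7.56%. Psmb9 differed by 0.02 ± 0.04 and Psme2 by 0.03 ± 0.03, with adjusted p = 0.77 and 0.51, and Psmb5 by 0.00029 ± 0.03. Nfe2l1 differed by 0.71 ± 0.09 (adjusted p = 6.4e-06). With the replicate number as a random block, 13 members were called higher and 6 lower. That count is of members only, without the share over all genes in that setting. When arrays were scaled to 1 spread, all 11 calls were lost and Psma5 and Psmd2 changed sign, to -0.059 and -0.046. Median centring gave 7 higher and 0 lower (limma, and 0 at an unadjusted p under 0.05), with 3406 and 2676 over all genes, against 3779 and 3981 with loess. Within culture series 1 there were 3 higher and 0 lower (2 at an unadjusted p under 0.05), and within series 2 there were 12 higher and 2 lower. These too are counts of members only. The call of Psmc6 was lost without SQ1 replicate 2, 3, 4, 6, 7 or 8 or pravastatin replicate 2, 4, 5, 6 or 7. That of Psmd13 was lost without SQ1 replicate 3, 4 or 7 or pravastatin replicate 2 or 7, and that of Psma7 without SQ1 replicate 1 or pravastatin replicate 2 or 7. Slide as a random block lost Psma7, Psmb8, Psmc6, Psmd13 and Psmd2. Each slide held 1 drug, so drug and slide cannot be told apart.

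The members that are no subunits gave little. Psmc3ip, which acts in meiotic recombination, was at 0.02, 0.09 and 0.13 with SQ1 and -0.04, 0.01 and 0.11 with pravastatin. It rose by 0.09 ± 0.02 with SQ1 (adjusted p = 0.0018) and was not called with pravastatin at 0.02 ± 0.02. Psme3ip1 was not called with either drug.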

How the data were processed

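RNA of cultured rat hepatocytes was measured on 16 two-colour arrays, grouped by the sample labels. Spots had been read by the authors in Agilent Feature Extraction (version 10.7.1.1, per the file headers). Its deposited output gives median signal and local background per spot as intensity, and a ratio column in log10, which was not used. The deposited value table holds log2 ratios of treated over untreated, but each column matches the other drug's array of that number (correlation at least 0.999), so it served only as an alternative with columns matched to arrays. Each array had 44254 spots, of which 42877 carried 30367 probes. RefSeq (GRCr8) named 17998 probes through the files' accessions. The files state build rn4, so gene coordinates are not given beyond the promoter windows. The number of arrays limits the precision.

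Background was removed by normexp (offset 50) and arrays were normalised by loess with limma 3.58.1 and statmod 1.5.0 under R 4.3.3. Spots of a probe were averaged. A probe stayed in if at least 6 of 32 channels were well above background, and the brightest probe stood for a gene, which gave 20395 genes, 11937 with a symbol. A model with a term per drug and a dye term was fitted over all 16 arrays, two-sided, and was checked on simulated data. The simulated arrays were independent of each other, so the check does not cover arrays that share cultures, slides or scan days. Members and gene lists were chosen with earlier results of these data known. Genes given in full were the 2 called members with the largest value per class and drug, the catalytic pairs and the activators. From other lists they were the 3 called genes with the largest value per drug, apart from those said to be named after their values were seen.

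File names give same-numbered arrays of both drugs the same control number. The residuals of these pairs correlated at 0.138 to 0.629. For replicates 2, 3, 7 and 8 another array correlated more, so the residuals do not settle whether the numbers pair the arrays. Scan days in the file headers split the arrays into 2 sets, called culture series here, and barcodes into 4 slides. The control numbers split the same way as the scan days, but no label states separate series of cultures. The alternatives were other background and normalisation settings, filters and probe rules, blocks for replicate, slide and series, and leaving out each array. Nothing states whether arrays came from separate animals, and p-values then measure the spread between these cultures only.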

Additional observations from a re-analysis of the deposited data

Results flagged for a closer look

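Of 64 sets of 8 arrays checked, 6 held 1 array far from the others, where chance gives about 1 in 20. Psma3 reached 0.66 on SQ1 replicate 5, with the next array at 0.30. Psme2 reached 0.32 on SQ1 replicate 8, with the next at 0.24. Psmf1 reached 0.24 on SQ1 replicate 4, with the next at 0.09. Psmb2 reached 0.092 on pravastatin replicate 6, with the next at 0.01. Psmb5 was lowest at -0.051 on pravastatin replicate 2, with the next at 0.07. On the same array the median of the 20S beta genes was -0.037, with the next at 0.05. The causes were not tested.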

How the results depend on the processing

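Leaving out each array in turn kept the call and direction of at least 27 of 30 members with SQ1, 16 of 19 with pravastatin and 8 of 11 in the difference of the drugs. Over the other settings the lowest such counts were 13, 12 and 0. Median centring left 0 members called down with SQ1, 1 with pravastatin and 0 in the difference, and turned Psme1 with SQ1 to 0.052. Scaling arrays to 1 spread gave 10 members up and 3 down with SQ1, 1 up and 0 down in the difference, and 1932 up and 1794 down over all genes there. It turned Psma5 to -0.059 and Psmd2 to -0.046 in the difference. With the replicate number as a random block (correlation 0.394) the difference gave 13 up and 6 down, and with a fixed block 5 down, and the block cost no call made without it. A fixed block identifies the difference only, since each number holds 1 array of each drug and the block takes up their mean. Slide as a random block (correlation 0.196) gave 4 up in the difference, and a culture series term 5 down. The counts with a block or a series term are of members only, without the share over all genes. Within culture series 1 the members called were 16 up and 3 down with SQ1, and 3 up and 0 down in the difference. Over all genes that series gave 1854 up and 2125 down with pravastatin, and 2378 up and 2423 down in the difference. Psma3 with pravastatin was at -0.19 within series 2. The causes were not tested, and neither was the effect of having fewer arrays within a series. The processed signals, the deposited value table, no background subtraction, other filters and the mean of probes kept each count of called members within 1.5 times.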
